A study of Mus musculus with 4 samples.

Results

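The S phase replication genes are 34 genes whose products license, open and copy DNA or supply and guard that copying. They were taken by symbol from the 27998 genes of the deposited matrix, where all 34 were found once. The rule that takes them uses no measured value, although the list was drawn up with earlier results of these data known. The samples were flow-sorted mammary gland cells of C57BL/B6 mice, profiled cell by cell with RNA sequencing in droplets (10x Chromium 3′ kit, version 2), which tags each captured transcript with a unique molecular identifier (UMI) and reads it near its 3′ end. There were 4 libraries, a control and a Zeb1 MSKO library from mice of 8 weeks and the same pair from mice of 9 weeks, so each genotype had 2 libraries and each age 1 library per genotype. The labels do not expand MSKO, do not say which part of Zeb1 was deleted or in which cells, and name no other allele, agent or sort marker. Nothing in them says whether the libraries came from separate animals or preparations, so each p-value is set against the spread of these libraries alone, and that spread may be technical. An effect of age, of the preparation and of the library cannot be told apart.

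A cell copies its DNA once per cycle. In G1 the factor Cdc6 helps load a ring of Mcm2, Mcm3, Mcm4, Mcm5, Mcm6 and Mcm7 onto origins, and in S phase Cdc45 and the GINS complex turn that ring into the active helicase. Primase and DNA polymerase alpha start each new strand, the sliding clamp PCNA holds the polymerases on it, and ribonucleotide reductase and thymidylate synthase supply the building blocks. Most of these genes are targets of E2F transcription factors, which the Rb family holds in check until cyclin and CDK activity releases them near the G1 to S boundary. In the adult mammary epithelium, basal (myoepithelial) cells form the outer layer, and the inner layer holds luminal progenitors and hormone-sensing cells that carry the receptors for estrogen and progesterone.

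The E2F letters in front of the members are shown first, because most genes of this kind are known as E2F targets. RefSeq promoter windows (GRCm38.p6, 250 bases before to 50 bases after the start of transcription) were matched for 28 of the 34 members, 2810417H13Rik under its RefSeq name Pclaf. No window was matched for Mcm4, Gins2, Rfc2, Tipin, Usp1 and Ccne2. TTTCCCGC, TTTGGCGC, TTTCGCGC and TTTGCCGC were searched on both strands, and overlapping matches were counted separately. Mcm7, Fen1, Uhrf1 and Wdr76 had 2 windows each. For every gene with more than 1 window, members and other genes alike, the window with the most matches was used. The start of transcription given below for Mcm7 is that of this window. At least 1 match lay in 11 of 28 members (39.3%), against 3.29% of 17492 protein-coding genes and 2.6% of all 27025 genes of the table. At least 2 matches lay in 4 members (14.3%) and in 0.154% of the protein-coding genes. Those 4 were all subunits of the helicase ring: Mcm6 with 3 matches and Mcm3, Mcm5 and Mcm7 with 2 each. By role, 5 of 7 licensing and helicase genes had a match, and none of the 5 nucleotide supply genes did. The letters CCAAT, on either strand, lay in 19 of 28 members (67.9%) against 38.9% of the protein-coding genes, and the median GC content was 58.5% and 56.3%. These are matches of letters, not measured binding. The 250 bases before the start follow for 3 of the 4 helicase genes, 5′ to 3′ on the strand of the gene, with the matches in capitals.
Mcm6, chr1:128359706-128359955, minus strand: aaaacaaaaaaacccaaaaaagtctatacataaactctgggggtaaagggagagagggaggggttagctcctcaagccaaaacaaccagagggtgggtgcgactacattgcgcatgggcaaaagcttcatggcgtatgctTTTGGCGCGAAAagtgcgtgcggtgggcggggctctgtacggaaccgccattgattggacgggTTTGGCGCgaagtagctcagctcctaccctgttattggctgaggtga
Mcm5, chr8:75109259-75109508, plus strand: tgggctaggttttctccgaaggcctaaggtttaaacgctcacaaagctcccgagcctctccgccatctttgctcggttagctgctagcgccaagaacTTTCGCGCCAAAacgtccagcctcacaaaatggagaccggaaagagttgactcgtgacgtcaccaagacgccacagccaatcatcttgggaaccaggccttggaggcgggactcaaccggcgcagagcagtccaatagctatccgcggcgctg
Mcm7, chr5:138171884-138172133, minus strand: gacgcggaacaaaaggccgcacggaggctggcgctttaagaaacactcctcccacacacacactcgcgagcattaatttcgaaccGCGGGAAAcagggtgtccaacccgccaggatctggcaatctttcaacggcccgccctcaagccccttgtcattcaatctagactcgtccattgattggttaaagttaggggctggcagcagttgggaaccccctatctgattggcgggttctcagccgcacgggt
In Mcm6 the first capital run holds overlapping matches of TTTGGCGC at -110 and of TTTCGCGC, read on the other strand, at -106, and the third match begins at -47, where -1 is the last base before the start. In Mcm5 TTTCGCGC at -153 overlaps TTTGGCGC, read on the other strand, at -149. Mcm7 has 1 match before the start, at -165, and its other match at 17 bases into the transcript. Both matches of Mcm3 lie inside the transcript, beginning at bases 20 and 39. The other members with a match were Cdc6, Pola1, 2810417H13Rik, Uhrf1, Hells, Dtl and Clspn, with 1 each.

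The libraries held 7627 to 9790 barcodes and 80853204 to 122122443 UMIs, with medians of 6376 (Zeb1 MSKO 8 weeks) to 10529.5 UMIs per barcode. Of 36194 barcode sequences, 682 occurred in more than 1 library. After the filters 34428 of 36884 barcodes were used, and cells were assigned to classes from raw marker UMIs, with no member among the markers. The mean level of the class's own markers, as log2(1 + UMIs per 10000), was 3.05 in basal-like cells (Krt5, Krt14, Acta2 and others), 2.77 in luminal progenitor-like cells (Kit, Elf5, Csn3 and others) and 1.80 in hormone-sensing luminal-like cells (Prlr, Esr1, Pgr and others), and T or NK-cell, B-cell and macrophage markers were at or under 0.00699 in all 3. Markers of the other epithelial classes were not absent. At least 3 luminal progenitor markers were detected in 21.6% of basal-like and 40.9% of hormone-sensing cells, at mean levels of 0.594 and 0.236. At least 3 basal markers were detected in 14.6% of luminal progenitor-like and 22.3% of hormone-sensing cells, at 0.161 and 0.148. The luminal keratins Krt8, Krt18 and Krt19 averaged 1.84 in basal-like cells, against 4.74 and 5.82 in the 2 luminal classes. Values of the 4 libraries are given throughout with the 8 week pair first and the control first in each pair. There were 1791, 4826, 2093 and 2443 basal-like cells, 3955, 1655, 2663 and 3221 luminal progenitor-like cells and 2532, 1101, 2294 and 3144 hormone-sensing luminal-like cells. The Zeb1 MSKO library at 8 weeks stood apart: it alone held a group of hair follicle keratinocyte-like cells (131 cells, against 1, 0 and 0), and a UMI of the hair keratins Krt71, Krt25 or Krt28 was found in 19.1% of its hormone-sensing and 10.5% of its luminal progenitor-like cells, against at most 0.0954% and 0.124% in the other libraries. In basal-like cells this share was 4.97% to 11.5%. Zeb1 itself was near 0 in the epithelium of both genotypes, at 0.106 to 1.14 CPM (UMIs scaled to 1000000 per class and library), and overlapped in fibroblast-like cells (57.8, 73.8, 85.1 and 48.9 CPM), so these 3′ counts do not check the labels.

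The members together gave 195107 UMIs in the 3 epithelial classes. Their mean level over the classes ran from 76.5 CPM (Nasp) to 0.865 CPM (E2f8), an 88.4-fold span, and the 6 highest members held 52.6% of the UMIs. Levels of different genes are compared here as UMIs, 1 per captured transcript, which do not scale with gene length. 20 members averaged at least 10 CPM. Only 1 of 408 values was 0, that of E2f8 in the 8 week hormone-sensing cells of Zeb1 MSKO. The summed level was 860, 712, 554 and 744 CPM in basal-like cells, 1138, 591, 401 and 681 CPM in luminal progenitor-like cells and 334, 316, 272 and 498 CPM in hormone-sensing cells. Hormone-sensing cells were lowest in all 4 libraries, the 8 week control had its highest sum of all in luminal progenitor-like cells, and basal-like cells were highest in the other 3 libraries. These are shares of the captured transcripts. Hormone-sensing cells held medians of 14034 to 17216 UMIs, against 5455 to 7994 in basal-like and 7530 to 8320 in luminal progenitor-like cells. A lower CPM in them, also in the class comparisons below, therefore does not by itself mean fewer member UMIs per cell, and the libraries differed in this. In the control at 8 weeks 2532 hormone-sensing cells held 11571 member UMIs and 1791 basal-like cells 12901, which is fewer per hormone-sensing cell. In Zeb1 MSKO at 9 weeks 3144 hormone-sensing cells held 27306 and 2443 basal-like cells 15958, which is more per hormone-sensing cell. Fibroblast-like cells were at 396, 383, 325 and 451 CPM and endothelial-like cells at 445, 454, 480 and 618 CPM, the 9 week values resting on 25, 34, 9 and 8 cells.

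**Figure D1:**
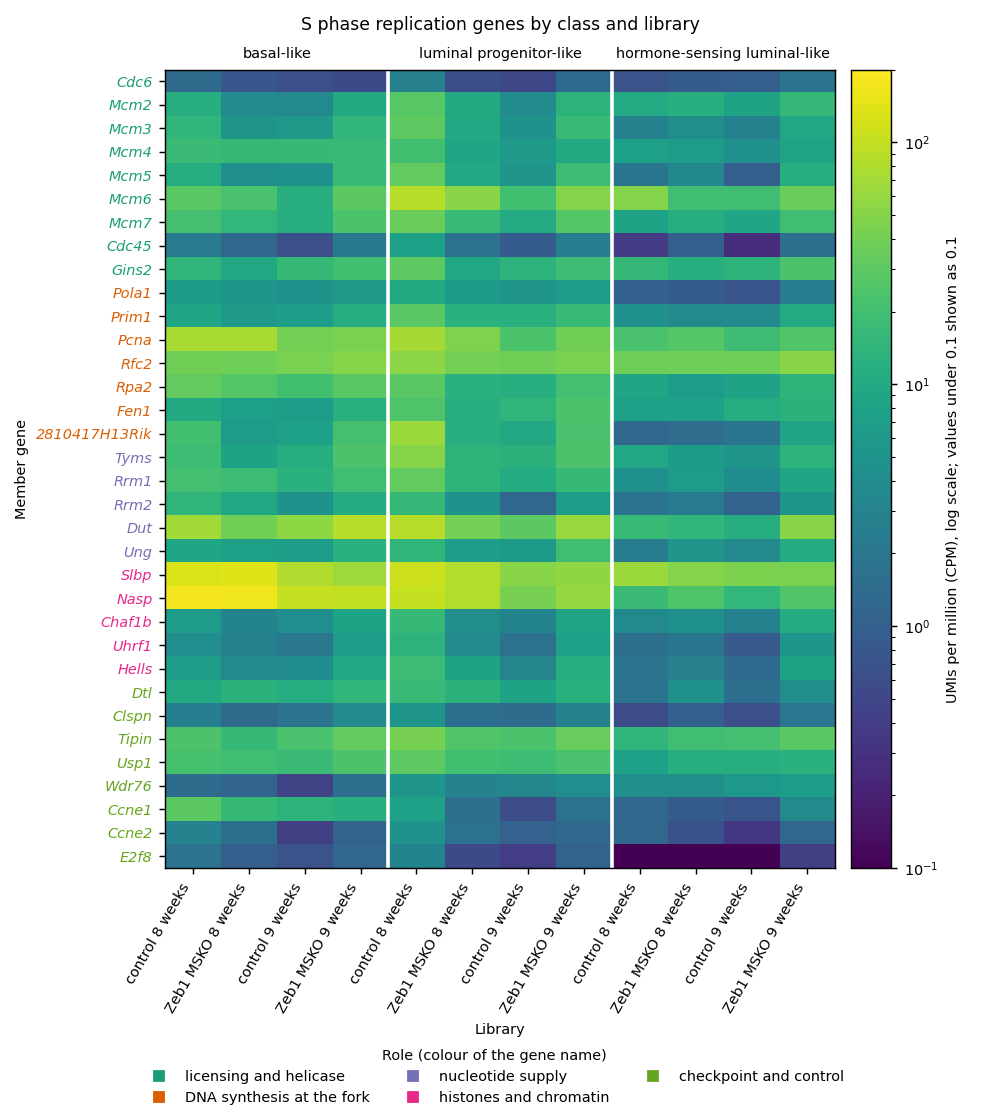
Level of each of the 34 members (rows, gene names coloured by role) in CPM on a log colour scale, in 3 epithelial classes and 4 libraries (columns). Nasp and Slbp are bright in every basal-like column, the 8 week control column of the luminal progenitor-like class is brighter than its neighbours, and the hormone-sensing columns are darkest.

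Single cells were sorted without any member to see how the members vary with other cell cycle genes. A cell was called replication-only when, after each cell was thinned to 2000 UMIs, it held at least 3 UMIs of 47 other replication genes (such as Rpa3, Rfc1, Pold2 and Orc6) and fewer than 3 of 36 G2 and M genes (such as Hmgb2, Cks2, Smc4 and Cenpa). Cells with 0 UMIs of both lists were the reference. A further 457 cells (0.343% to 3.14% of a library) held at least 3 UMIs of each list, and all 34 members were highest there by the mean over libraries. These cells carried 6.13 to 8.52 member UMIs of 2000, against 0.950 to 3.00 in replication-only cells, at a higher median depth (14284.5 to 17981 UMIs). In them Mcm5 averaged 137 CPM and 2810417H13Rik 470 CPM over libraries, against 47.1 and 24.4 CPM in replication-only cells. The replication-only cells are therefore not all cells in S phase, and the ratios given next leave out the cells richest in members. There were 1013 replication-only cells (1.95% to 4.59% of the epithelial cells of a library) and 11631 reference cells (32.3% to 39.6%). All 34 members were higher in the replication-only cells when libraries were pooled, by 1.28-fold (Slbp) to 34.9-fold (2810417H13Rik) with a median of 4.39-fold, and 29 were higher in every library. These ratios are descriptions with no test, since cells of a library are not replicates.

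Slbp and Nasp, the clamp loader subunit Rfc2 and the clamp Pcna had the lowest pooled ratios. The ratios pool the 3 classes, and basal-like cells were a smaller part of the replication-only than of the reference cells in each library. In the control at 8 weeks they were 31 of 300 and 600 of 2671, and in Zeb1 MSKO at 9 weeks 85 of 404 and 975 of 3286. Slbp, Nasp and Pcna were higher in basal-like than in hormone-sensing cells, and the part of the class mix in their ratios was not tested. Slbp, whose product binds histone mRNA, was at 64.9 CPM in the pooled reference cells and 83.2 CPM in the pooled replication-only cells. Nasp, a histone chaperone, was at 60.3 and 90.2 CPM, Rfc2 at 38.5 and 69.9 CPM and Pcna at 33.2 and 70.01 CPM. At the other end stood 2810417H13Rik, which encodes a PCNA-binding factor, with 0.878 and 30.6 CPM. Mcm5 was at 3.08 and 58.6 CPM, Uhrf1, which binds hemimethylated DNA behind the fork, at 1.25 and 21.4 CPM, and Hells, a chromatin remodeller, at 2.38 and 34.4 CPM. Nasp, Slbp, Rfc2 and Pcna were also among the 6 most abundant members, so a sum over the list is weighted towards genes that the reference cells held too. The median ratio was 9.77-fold for the 11 members with E2F letters (3.22 to 34.9) and 3.97-fold for the 17 without (1.28 to 11.9), with overlapping ranges.

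Replication-only cells were also set beside the 655 cells with at least 3 UMIs of the G2 and M genes only. With libraries pooled, all 9 licensing and helicase genes were lower in the G2 and M cells, with a median ratio of 0.521. This order held for 9, 8 and 9 of the 9 in the control at 8 weeks, Zeb1 MSKO at 8 weeks and Zeb1 MSKO at 9 weeks, and was turned in the control at 9 weeks, where 8 of the 9 were higher in the G2 and M cells and Cdc6 alone was lower (ratios 0.814 to 4.88). Mcm2 was at 45.9 CPM in pooled replication-only cells and 19.1 CPM in pooled G2 and M cells, Mcm6 at 119 and 55.7 CPM, Gins2, a GINS subunit, at 57.9 and 24.9 CPM, and Ung, which cuts uracil out of DNA, at 38.8 and 11.3 CPM. In the other direction, 2810417H13Rik was at 30.6 and 107 CPM, Rrm2, the regulated subunit of ribonucleotide reductase, at 13.3 and 23.4 CPM, and Tyms, thymidylate synthase, at 39.5 and 57.7 CPM. Of the 34 members 23 were lower and 11 higher in the pooled G2 and M cells, while in the control at 9 weeks 4 were lower (Cdc6, Ung, Hells and Wdr76) and 29 higher. In the control at 9 weeks the replication-only cells held on average 0.950 member UMIs of 2000 against 0.746 in the reference cells, and in the control at 8 weeks 3.00 against 0.930, so the libraries differed in how far the sorting separated cells. Depth moved with the sorting: the median was 6734 to 12557.5 UMIs in replication-only cells, 6768 to 13561 in G2 and M cells and 6029 to 9947 in reference cells, and its part in the ratios was not tested.

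**Figure D2:**
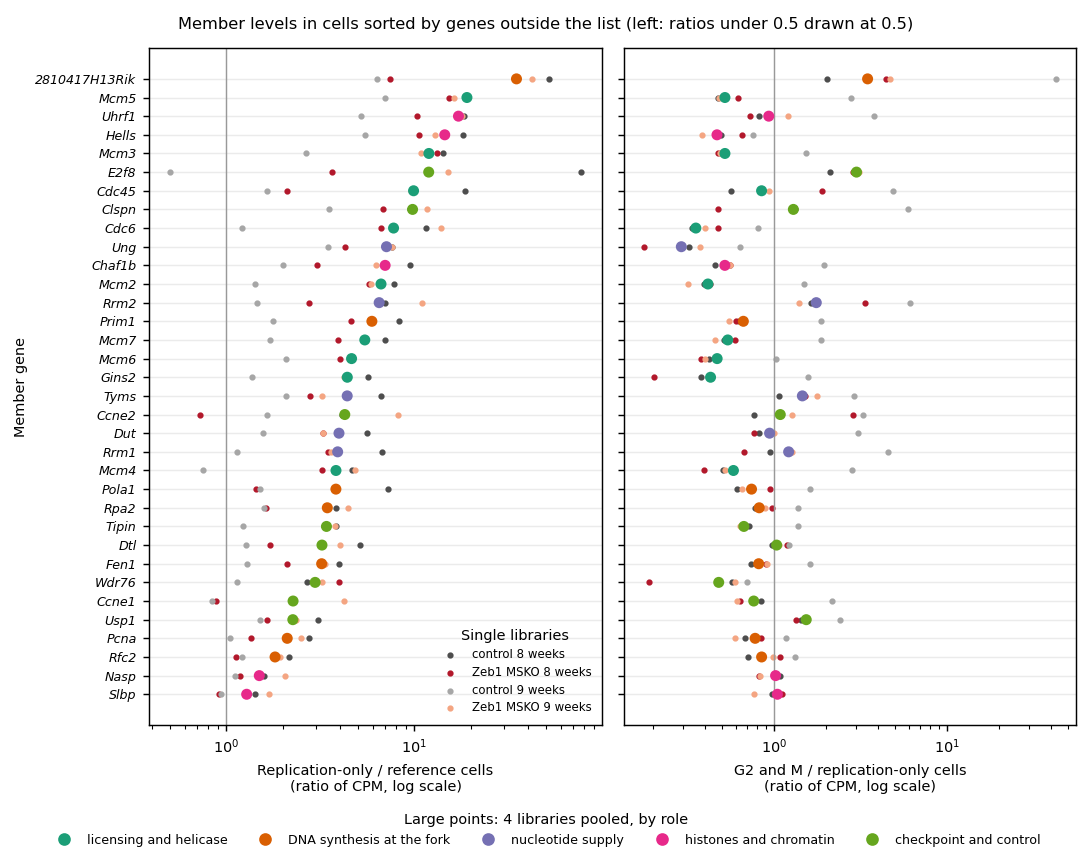
Left, CPM of each member in replication-only cells divided by CPM in reference cells (log axis), with large points for the 4 libraries pooled and small points for single libraries, and right, CPM in G2 and M cells divided by CPM in replication-only cells, drawn in the same way (log axis). Slbp and Nasp lie near 1 on the left and 2810417H13Rik is highest at 34.9, and on the right the pooled points of all 9 licensing and helicase genes lie below 1 while 8 of their 9 points for the control at 9 weeks lie above it.

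The classes were compared within libraries (edgeR's quasi-likelihood test, library as a block, Benjamini-Hochberg adjustment over 14631 genes, threshold 0.05). Hormone-sensing cells were lower than luminal progenitor-like cells in 25 of 34 members and higher in 0, while 27.8% of all genes tested were lower and 29.5% higher. DESeq2 also called 0 members higher. The median member difference was -1.09 on the log2 scale, and that of all genes -0.01. Against basal-like cells, hormone-sensing cells were lower in 19 members and higher in 2, with 35.8% of all genes lower and 34.3% higher, and the median was -0.91. Luminal progenitor-like and basal-like cells differed in fewer members: 5 were higher and 5 lower in the luminal progenitor-like cells, below the background of 26.8% and 29.3%, and the median was 0.26. The reach of these calls varied with the libraries: without the control at 8 weeks the members lower in hormone-sensing than in luminal progenitor-like cells were 20, and without the library block 15.

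By role, all 5 nucleotide supply genes were lower in hormone-sensing than in basal-like cells, with a median of -1.53. Dut, which clears dUTP, stood at 70.1, 39.9, 54.2 and 88.2 CPM in basal-like cells, 89.6, 40.7, 29.6 and 61.7 CPM in luminal progenitor-like cells and 16.7, 15.1, 11.4 and 51.3 CPM in hormone-sensing cells (against basal-like cells, log2 difference -1.56, SE 0.30, adjusted p = 0.00077). The hormone-sensing value of the Zeb1 MSKO library at 9 weeks was far above the other 3 and overlapped the basal-like range. Of the fork genes, Pola1, the polymerase alpha catalytic subunit, was lower in hormone-sensing than in luminal progenitor-like cells (-2.38, SE 0.31, adjusted p = 7.29e-05). Its levels were 10.1, 6.22, 5.19 and 6.75 CPM in luminal progenitor-like and 1.04, 0.913, 0.750 and 2.61 CPM in hormone-sensing cells, with no overlap. Pcna was at 73.5, 74.1, 40.3 and 43.4 CPM in basal-like, 71.7, 45.5, 23.0 and 38.3 CPM in luminal progenitor-like and 22.7, 26.6, 19.1 and 25.4 CPM in hormone-sensing cells. The hormone-sensing values varied least, and they overlapped only the luminal progenitor-like value of the control at 9 weeks. Rfc2 was at 37.9, 36.9, 43.7 and 50.5 CPM in basal-like, 52.9, 40.3, 38.7 and 43.3 CPM in luminal progenitor-like and 37.2, 36.9, 37.5 and 52.1 CPM in hormone-sensing cells, the 3 ranges overlapped, and no class comparison called it.

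Nasp and Slbp set the basal-like cells apart. Nasp (chr4:116601052-116627941, minus strand) was at 174, 172, 102 and 98.2 CPM in basal-like cells, 103, 84.3, 42.5 and 59.6 CPM in luminal progenitor-like cells and 17.6, 24.6, 15.1 and 25.4 CPM in hormone-sensing cells. The basal-like value exceeded the luminal progenitor-like value within each library, and all hormone-sensing values lay below all others. The differences were -0.98 (SE 0.22, adjusted p = 0.00249) for luminal progenitor-like and -2.66 (SE 0.23, adjusted p = 1.53e-06) for hormone-sensing against basal-like cells. Slbp (chr5:33634952-33652574, minus strand) was at 130, 136, 80.7 and 65.6 CPM in basal-like, 113, 83.5, 52.0 and 56.2 CPM in luminal progenitor-like and 63.6, 48.3, 44.9 and 42.9 CPM in hormone-sensing cells. Both genes were higher at 8 than at 9 weeks in basal-like cells of either genotype, and both had low ratios between replication-only and reference cells. In the cells with at least 3 UMIs of each list, Slbp averaged 194 CPM and Nasp 167 CPM over libraries, against 68.6 and 64.7 CPM in reference cells.

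Cyclin E1 was higher in basal-like than in luminal cells, and Wdr76 was lower. Ccne1 (chr7:38097984-38107534, minus strand), the cyclin that drives entry into S phase with CDK2, was at 29.3, 16.2, 13.7 and 12.2 CPM in basal-like cells, 7.65, 1.64, 0.599 and 1.72 CPM in luminal progenitor-like cells and 1.30, 0.913, 0.721 and 3.70 CPM in hormone-sensing cells. All basal-like values lay above all luminal values. The differences were -3.00 (SE 0.56, adjusted p = 0.000822) and -3.42 (SE 0.58, adjusted p = 0.000274) against basal-like cells. Its relative Ccne2 was at 2.93, 1.59, 0.424 and 1.17 CPM in basal-like, 4.78, 1.78, 1.08 and 1.27 CPM in luminal progenitor-like and 1.21, 0.669, 0.346 and 1.24 CPM in hormone-sensing cells. For Ccne2 the ranges of the 3 classes overlapped, and the test called it lower in hormone-sensing than in luminal progenitor-like cells only (-1.16, SE 0.36, adjusted p = 0.0175). Wdr76 (chr2:121506723-121544860, plus strand), a WD-repeat protein, was at 1.47, 1.21, 0.477 and 1.59 CPM in basal-like, 5.22, 2.94, 3.24 and 4.20 CPM in luminal progenitor-like and 4.25, 4.32, 5.71 and 6.87 CPM in hormone-sensing cells. All luminal values lay above all basal-like values, with differences of 1.69 (SE 0.31, adjusted p = 0.000798) and 2.20 (SE 0.31, adjusted p = 7.07e-05). Wdr76 and Mcm2 were the 2 members higher in hormone-sensing than in basal-like cells.

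Among the helicase genes, Mcm6 was highest in luminal progenitor-like cells, at 88.8, 51.5, 20.0 and 48.9 CPM, against 28.2, 22.6, 12.1 and 29.8 CPM in basal-like cells and 48.4, 19.2, 19.3 and 36.0 CPM in hormone-sensing cells. Within each library the luminal progenitor-like value was the highest of the 3 classes, although the ranges overlapped (luminal progenitor-like against basal-like 1.04, SE 0.20, adjusted p = 0.00108). Mcm2 was also higher there than in basal-like cells (0.82, SE 0.32, adjusted p = 0.0499), as were Fen1, the flap nuclease (0.94), and Prim1, the primase subunit (1.05). Mcm4 went the other way (-0.74, SE 0.24, adjusted p = 0.0211), as did Rpa2, a subunit of the single-strand binding protein (-0.64). The helicase subunits, which work as 1 ring, therefore did not share 1 order of classes at the RNA level. The least abundant members were Wdr76, Ccne2 and 4 others. Clspn, a checkpoint mediator, was at 2.67, 1.38, 1.80 and 3.82 CPM in basal-like, 5.07, 1.57, 1.48 and 2.96 CPM in luminal progenitor-like and 0.578, 1.03, 0.634 and 1.97 CPM in hormone-sensing cells. Cdc45 was at 2.27, 1.31, 0.636 and 2.14 CPM in basal-like and 7.41, 1.71, 0.919 and 2.58 CPM in luminal progenitor-like cells. In both genes the luminal progenitor-like cells of the 8 week control stood above every other value. Cdc6 was at 1.40, 0.793, 0.636 and 0.559 CPM in basal-like, 2.72, 0.615, 0.519 and 1.34 CPM in luminal progenitor-like and 0.693, 0.913, 1.01 and 1.79 CPM in hormone-sensing cells. E2f8, a repressor of E2F targets, was at 1.80, 1, 0.689 and 1.21 CPM in basal-like, 3.09, 0.547, 0.399 and 1.14 CPM in luminal progenitor-like and 0.0289, 0, 0.0577 and 0.419 CPM in hormone-sensing cells, the last on 1, 0, 2 and 23 UMIs. They too peaked in the luminal progenitor-like class of the 8 week control, and all hormone-sensing values of E2f8 except that of Zeb1 MSKO at 9 weeks lay below every value of the other classes.

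The subunits of ribonucleotide reductase had their lowest values in hormone-sensing cells. Rrm1, the large subunit, was at 20.3, 18.3, 13 and 19.2 CPM in basal-like, 32.7, 13.9, 10.7 and 16.3 CPM in luminal progenitor-like and 4.48, 6.63, 4.04 and 9.06 CPM in hormone-sensing cells. All hormone-sensing values lay below all others (-1.53, SE 0.28, adjusted p = 0.000551 against basal-like cells). Rrm2 was at 15, 9.20, 4.93 and 10.8 CPM in basal-like cells and 1.82, 2.25, 1.12 and 5.47 CPM in hormone-sensing cells, where only the highest hormone-sensing and the lowest basal-like values crossed (-1.90, SE 0.44, adjusted p = 0.00238). Mcm4 was nearly level between basal-like libraries, at 18, 16.2, 16.3 and 17.2 CPM, and varied in luminal progenitor-like cells, at 20.3, 9.02, 5.91 and 10.1 CPM. Its basal-like values lay within the luminal progenitor-like range. The chromatin genes Uhrf1, Hells and Chaf1b, a subunit of the histone chaperone CAF-1, had in luminal progenitor-like cells 13.6, 3.96, 1.72 and 7.75 CPM, 18.2, 8, 3.31 and 11.5 CPM, and 16.5, 4.24, 3.08 and 8.37 CPM. In each of these 3 the control at 8 weeks was highest and the control at 9 weeks lowest. Gins2 was at 14.3, 9.44, 16.3 and 20.3 CPM in basal-like, 30.4, 9.16, 13.8 and 18.8 CPM in luminal progenitor-like and 15.7, 12.2, 13.6 and 24.3 CPM in hormone-sensing cells. Its ranges overlapped in all 3 classes, and the hormone-sensing cells differed from neither other class in the test (0.14, SE 0.23, adjusted p = 0.593 against basal-like cells).

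Cells rich in member UMIs were counted per library, each cell thinned to 2000 UMIs. The share with at least 3 member UMIs was 19.3%, 16.2%, 10.0% and 14.2% in basal-like cells, 20.0%, 10.6%, 5.03% and 11.7% in luminal progenitor-like cells and 3.32%, 3.18%, 1.44% and 7.82% in hormone-sensing cells. The control at 8 weeks was highest in the first 2 classes, the Zeb1 MSKO library at 9 weeks in the last, and the control at 9 weeks was lowest in all 3. The 95% Wilson intervals, which cover counting error only, were 18.8% to 21.2% and 9.18% to 12.1% for the luminal progenitor-like cells of control and Zeb1 MSKO at 8 weeks. Fibroblast-like cells held 3.85% and 4.24% at 8 weeks (median depths 7279.5 and 6901.5 UMIs, against 14034 and 15250 in hormone-sensing cells), so the hormone-sensing shares at 8 weeks and of the control at 9 weeks were not above that level. Without thinning, the shares with 3 UMIs were 84.0%, 69.2%, 76.3% and 75.4% in basal-like cells, 70.1%, 66.4%, 54.8% and 60.6% in luminal progenitor-like cells and 74.1%, 72.1%, 68.7% and 84.1% in hormone-sensing cells, and no cell was too shallow to thin. With at least 5 thinned member UMIs the share was 4.41%, 1.95%, 1.24% and 3.48% in basal-like cells, 9.51%, 2.30%, 0.939% and 4.56% in luminal progenitor-like cells and 0.197%, 0.727%, 0.131% and 2.83% in hormone-sensing cells. Fibroblast-like cells then held 0 of 416 cells, which allows a share of up to 0.721%, and 2 of 566 cells at 8 weeks.

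In luminal progenitor-like cells the share with 3 member UMIs was 12.5% ± 10.6 in control and 11.2% ± 0.821 in Zeb1 MSKO (SD, n = 2 each), in basal-like cells 14.7% ± 6.57 and 15.2% ± 1.36, and in hormone-sensing cells 2.38% ± 1.33 and 5.50% ± 3.28. The differences were smaller than the larger of the 2 SDs in all 3 classes. Without Zeb1 MSKO at 9 weeks the hormone-sensing difference of 3.12 percentage points was 0.801. The two-sided exact permutation p was 1, 1 and 0.667, and 2 against 2 libraries cannot go below 0.33. The hormone-sensing share with at least 5 member UMIs rested on 89 cells of Zeb1 MSKO at 9 weeks, against 5, 8 and 3 cells elsewhere. The hormone-sensing markers averaged 1.76 in those 89 cells and 1.76 in the class's other cells there, and their basal-like and luminal progenitor-like markers were at 0.147 and 0.242. These cells were deeper (median 21460 against 17169 UMIs) and had a higher median doublet score (0.0575 against 0.0361), and the part of either in the share was not tested.

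**Figure D3:**
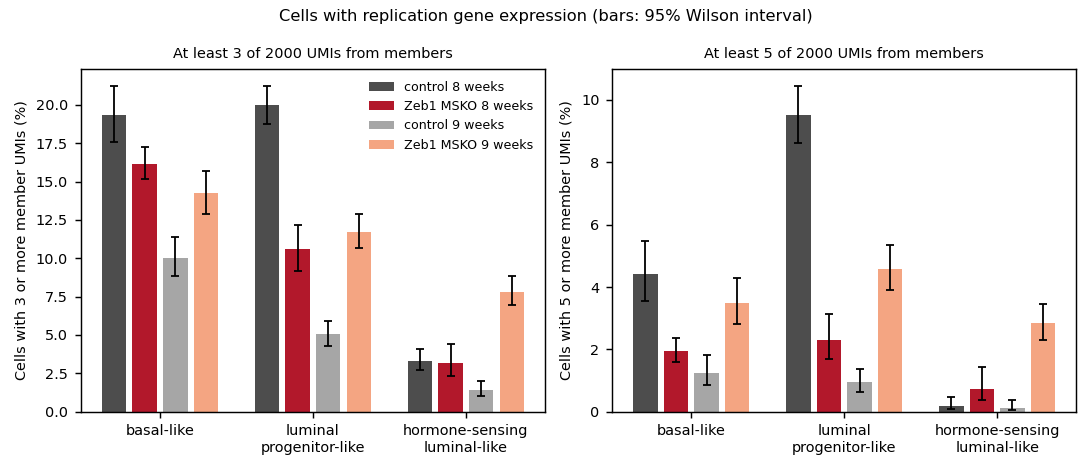
Percent of cells with at least 3 (left) and at least 5 (right) member UMIs after thinning to 2000 UMIs per cell, for 3 classes and 4 libraries, with 95% Wilson intervals. In luminal progenitor-like cells the bars at 3 UMIs stand at 20.0%, 10.6%, 5.03% and 11.7%, and the 2 controls are the highest and the lowest.

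The genotypes were compared within each class over the 4 libraries (edgeR's quasi-likelihood test, 12937, 12890 and 13032 genes in basal-like, luminal progenitor-like and hormone-sensing cells). No member was called in any class, and of all genes 0% was called in each. DESeq2 called 0 members too, and 4, 7 and 39 of all genes. At an unadjusted p under 0.05 there were 0 of 34 members in basal-like cells (0.464% of all genes), 0 of 34 in luminal progenitor-like cells (1.4%) and 10 of 33 in hormone-sensing cells (3.64%), E2f8 not being tested there. An adjusted p of 1 for each member does not show that the genotypes were alike.

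In luminal progenitor-like cells the ages went in opposite directions. All 34 members were lower in Zeb1 MSKO than in control at 8 weeks and all 34 higher at 9 weeks, with median log2 ratios of -1.30 and 0.91, while the medians of all genes were -0.04 and 0.00. The control at 8 weeks was the highest library for 33 members and the control at 9 weeks the lowest for 31. 2810417H13Rik (chr9:65890237-65903266, plus strand) was at 64.4, 12.1, 9.71 and 22.7 CPM, Tyms at 50.9, 13.9, 13.1 and 23.8 CPM and Mcm5 at 32.5, 9.77, 5.31 and 18.6 CPM. In each the Zeb1 MSKO values lay between the control values. No member had both Zeb1 MSKO libraries above both controls or below them, against 9.78% and 10.9% of all genes tested. The smallest swings were those of members with low pooled ratios of replication-only to reference cells, such as Rfc2 (-0.52 and 0.15), Slbp (-0.56 and 0.11) and Nasp (-0.42 and 0.48). The fold change over both ages had a median of -0.45, which became 0.74 without the control at 8 weeks and -1.06 without the control at 9 weeks.

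Basal-like cells showed a like pattern of smaller size. The median member log2 ratio was -0.59 at 8 weeks and 0.73 at 9 weeks, with 2 and 30 of 34 members higher in Zeb1 MSKO, and 0.02 over both ages (0.03 for all genes). Without the controls at 8 or 9 weeks the median became 0.49 or -0.21. Mcm5 (chr8:75109569-75128439, plus strand) was at 11, 4.41, 4.51 and 17.3 CPM. Both values of Zeb1 MSKO were outside those of the control, on opposite sides. Dtl (chr1:191537356-191575544, minus strand), a substrate receptor of a ubiquitin ligase that acts on PCNA-bound proteins, was at 10.0, 13.1, 11.2 and 14.9 CPM. It was the 1 member with both Zeb1 MSKO values above both controls (0.37, SE 0.30, adjusted p = 1), against 8.26% of all genes above and 6.74% below. Ccne1 was the member with the lowest fold change (-0.63, SE 0.44), its control at 8 weeks (29.3 CPM) standing above the other 3 libraries, and without that library the fold change was 0.05. Nasp was at -0.06 (SE 0.42).

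**Figure D4:**
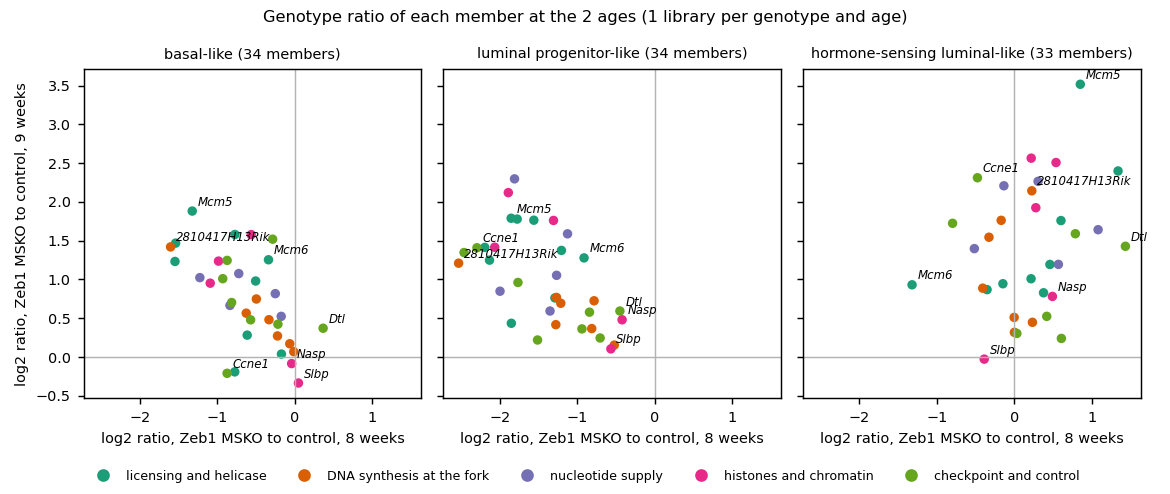
Log2 ratio of Zeb1 MSKO to control at 8 weeks (x axis) and at 9 weeks (y axis) for each member tested in 3 classes, 1 point per member coloured by role, each ratio from 1 library per genotype. All 34 luminal progenitor-like points lie in the upper left quadrant, and most hormone-sensing points lie above 0 on the y axis.

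Hormone-sensing cells were the class in which members most often had the same direction at both ages, 22 of 33 against 4 of 34 in basal-like and 0 of 34 in luminal progenitor-like cells. All genes tested did so most often there too: 6686 of 13032, against 4572 of 12937 and 5471 of 12890. In 31 of 33 members the fold change was positive (6820 of all 13032 genes), with a median of 0.84 against 0.02 for all genes. In Zeb1 MSKO 21 members were higher at both ages, as were 3121 of all genes. The median was 0.23 at 8 weeks and 1.40 at 9 weeks, and leaving out Zeb1 MSKO at 9 weeks, the highest library for 30 of 34 members, gave a median of 0.17 over both ages. In 16 of 33 members both Zeb1 MSKO libraries lay above both controls and in 0 below, against 13.2% and 15.5% of all genes tested. Dtl was at 1.82, 4.99, 1.61 and 4.32 CPM, with no overlap between the genotypes (1.48, SE 0.34, adjusted p = 1). Cdc45, the helicase activator, was at 0.376, 1.03, 0.259 and 1.57 CPM, also without overlap, on 13, 17, 9 and 86 UMIs. Mcm5 was at 1.91, 3.47, 1.01 and 11.8 CPM, with the largest fold change of the members (2.46, SE 0.71). There the 9 week library of Zeb1 MSKO alone was far above the rest.

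The members of this class that averaged at least 10 CPM and kept their direction at both ages had smaller fold changes. Mcm7 was at 8.26, 11.3, 8.76 and 19.6 CPM (0.91, SE 0.34), Nasp at 17.6, 24.6, 15.1 and 25.4 CPM (0.66, SE 0.20) and Mcm2 at 10.4, 12, 7.93 and 15.6 CPM (0.64, SE 0.27). In these 3 both Zeb1 MSKO values were above both controls. Tipin, which protects stalled forks, was at 14.8, 19.7, 20.4 and 28.6 CPM (0.50, SE 0.30), Usp1, which removes ubiquitin from PCNA, at 7.77, 11.8, 11.3 and 13 CPM (0.42, SE 0.29) and Pcna at 22.7, 26.6, 19.1 and 25.4 CPM (0.36, SE 0.19). The genotypes overlapped for Tipin, and not for Usp1 and Pcna. Slbp was lower in Zeb1 MSKO at both ages, at 63.6, 48.3, 44.9 and 42.9 CPM (-0.21, SE 0.23). All of these had an adjusted p of 1. Without Zeb1 MSKO at 9 weeks the fold change was 0.42 for Mcm7, 0.40 for Mcm2 and 0.17 for Tipin, and without the control at 8 weeks it was 0.15 for Usp1 and 0.26 for Tipin, while Nasp and Pcna moved less. Of the hormone-sensing cells of the Zeb1 MSKO library at 8 weeks, 19.1% carried hair keratin UMIs. They held 0.657 member UMIs of 2000 on average, against 0.678 in the class's cells without such a UMI. In the same library the other 2 classes went the other way: 1.35 with and 1.06 without in luminal progenitor-like cells, and 1.57 and 1.36 in basal-like cells. Leaving out the cells with a hair keratin UMI in every library gave a hormone-sensing median fold change of 0.81.

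Whether the genotype effect itself differed from class to class was tested with interaction terms, blocking on library. No member was called: 0% of all genes was called between luminal progenitor-like and basal-like cells, 0.00683% between hormone-sensing and basal-like cells and 0% between hormone-sensing and luminal progenitor-like cells, and DESeq2 called 0 members in each. At an unadjusted p under 0.05 there were 0, 5 and 15 of 34 members in the same order, against 2.04%, 4.62% and 5.28% of all genes. Between hormone-sensing and luminal progenitor-like cells 33 of 34 interaction values were positive (7405 of 14631 for all genes), with a median of 1.12 (0.01 for all genes). Single libraries stood out in both classes. The control at 8 weeks was highest for 33 members in luminal progenitor-like cells, and Zeb1 MSKO at 9 weeks for 30 in hormone-sensing cells. Mcm5 had one of the larger values (2.38, SE 0.56, adjusted p = 0.61).

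Other cell cycle genes were set beside the members. Of 47 other replication genes, 0 were called by genotype in any class, and their medians in basal-like, luminal progenitor-like and hormone-sensing cells were -0.03, -0.33 and 0.68. Of 36 G2 and M genes 0 were called. At 8 weeks all 36 were lower in Zeb1 MSKO in basal-like cells (median -1.87) and in luminal progenitor-like cells (-2.34), and at 9 weeks 36 and 34 were higher (1.28 and 0.45), and in hormone-sensing cells 29 of 32 tested had a positive fold change (median 1.25). Cenpa, the centromeric histone, had -0.53 (SE 0.54), -1.18 (SE 0.49) and 0.71 (SE 0.26) in the same order of classes. Of 20 G1 cyclins, kinases, Rb family members and CDK inhibitors 0 were called, with medians of -0.04, -0.01 and 0.21. At 8 and 9 weeks these G1 genes had medians of -0.02 and 0.01 in luminal progenitor-like cells. In both of these classes the medians of the other replication genes had the signs of the members at each age, at -0.58 and 0.67 (basal-like) and -1.16 and 0.69 (luminal progenitor-like).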

How the data were processed

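Per the submitters' processing notes, the authors used Cell Ranger 2.1.0 with the mm10 genome build. The deposited matrix holds whole-number UMI counts of each gene in each barcode, aggregated over 4 libraries, and the barcode suffix given in the labels names the library. No source used here says whether the aggregation equalised depth. The members and lists were chosen with earlier results of these data known.

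Barcodes with at least 500 genes and at most 10% mitochondrial UMIs were kept. Doublets were called per library by nearest neighbours against simulated doublets (probability over 0.25, set after seeing the data), which removed 4.89% to 6.41% and leaves some. A cell joined the class whose markers had the highest mean log2(1 + UMIs per 10000), with at least 3 markers detected and a margin of 0.5, so classes are rebuilt and not the authors'. Per class and library, counts were summed and tested with edgeR 4.0.16 (TMM, default filter, Benjamini-Hochberg), tested beforehand on simulated data, with DESeq2 1.42.0 as an alternative. CPM are UMIs scaled to 1000000 per class and library. Log2 ratios within an age use a prior count of 2. Gene positions are from GENCODE vM21. All values in every library are given for members averaging 10 CPM or more with 1 direction at both ages (up to 8 per class by size), and for the 6 highest and 6 lowest by mean level; others with full values were chosen after their values were seen. The class tests block on library. Alternatives were DESeq2, no filter, other gates, doublets kept, age as a block, other UMI minimums and each library left out.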

Additional observations from a re-analysis of the deposited data

Results flagged for a closer look

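The genotype difference had opposite directions at 8 and at 9 weeks, with 1 library per genotype and age, and the difference between the ages was not tested. The share of cells with 3 or more member UMIs in Zeb1 MSKO minus control was -3.16 and 4.21 percentage points in basal-like cells, -9.40 and 6.70 in luminal progenitor-like cells and -0.139 and 6.39 in hormone-sensing cells. The median member log2 ratio was -0.594 and 0.726 in basal-like cells and -1.30 and 0.905 in luminal progenitor-like cells, but 0.226 and 1.40 in hormone-sensing cells. In luminal progenitor-like cells the control stood at 20.0% and 5.03% of cells at the 2 ages, and Zeb1 MSKO at 10.6% and 11.7%.

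A signal outside the 3 epithelial classes came from the 131 hair follicle keratinocyte-like cells of the Zeb1 MSKO library at 8 weeks, which held 5.98 member UMIs of 2000 on average, against 0.548 to 1.77 in the epithelial classes. At least 5 member UMIs were found in 51.1% of them (95% Wilson interval 42.7% to 59.5%). No other library had more than 1 such cell. The 403 cells of the same library that joined no class held 3.89 member UMIs on average, with at least 5 in 112 of them (27.8%). In the other libraries such cells averaged 1.45 (control 8 weeks), 0.882 (control 9 weeks) and 1.76 (Zeb1 MSKO 9 weeks) member UMIs.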

How the results depend on the processing

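No member was called by genotype in any class under any alternative, leaving out each library included, where the lone library of a genotype is assumed to vary like the other genotype's pair. Over these settings 0 to 57, 0 to 90 and 0 to 39 of all genes were called in basal-like, luminal progenitor-like and hormone-sensing cells. Leaving out 1 library at a time gave median member fold changes of -0.21 to 0.49 in basal-like, -1.06 to 0.74 in luminal progenitor-like and 0.17 to 1.21 in hormone-sensing cells. In basal-like cells it gave -1.12 to 0.048 for Ccne1 and -0.56 to 0.42 for Nasp (0.42 without the control at 8 weeks, 0.31 without Zeb1 MSKO at 9 weeks), and in hormone-sensing cells -0.42 to 0.034 for Slbp, 0.17 to 0.78 for Tipin, 0.15 to 0.74 for Usp1, 0.42 to 1.27 for Mcm7 and 0.40 to 0.84 for Mcm2. The share difference with 3 member UMIs ran from -4.12 to 5.17 percentage points in basal-like, from -8.82 to 6.12 in luminal progenitor-like and from 0.801 to 5.45 in hormone-sensing cells. Without thinning it was -7.86 and 1.06 in the first 2 classes, and at 5 UMIs it was -0.113 in basal-like cells. The members lower in luminal progenitor-like than in basal-like cells numbered 2 to 7 with 1 library left out and 2 without the library block. Those higher in hormone-sensing than in basal-like cells numbered 1 to 2 and 1, and those lower in hormone-sensing than in luminal progenitor-like cells 20 to 27 and 15. Leaving out cells with a hair keratin UMI, chosen after seeing the data, gave 8 members higher in luminal progenitor-like than in basal-like cells. The cause was not tested for any of these. With age as a replicate block the medians were 0.04, -0.21 and 0.67 and 0 members were called. The labels tie the replicate numbers to no shared animal, and the age ratios of the genotypes correlated across genes at 0.378, 0.31 and 0.247, over only 2 pairs. Of 252 values recomputed for 28 results under other settings, 235 were labelled the same, 7 moved and 10 reversed. These labels are loose. A median counted as the same if it shifted by less than the SD of its 2 age ratios, even with a changed sign. The luminal progenitor-like median of 0.74 without the control at 8 weeks, against -0.45 in the main fit, was labelled so. So were 2 sign changes of the basal-like median with 1 library left out. A count of members was the same within a fixed ratio. Members near 1 CPM rest on few UMIs, which limits their ratios.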
